A study of Homo sapiens with 58 samples.

Results

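The comparison described here is between 8 HuR CLIP libraries taken through streptavidin capture and 4 input libraries of the same Huh-7.5 line, a human hepatocellular carcinoma line whose genotype is given as APEX-NLS. They were chosen by label, as every library of that line, and make up 12 of the 58 libraries of the series. APEX is an engineered peroxidase that attaches biotin to proteins close to it, and the NLS (nuclear localisation signal) directs it to the nucleus. All 12 libraries came from cells labelled with 0.5 mM biotin phenol for 30 min and 1 mM hydrogen peroxide for 1 min, then crosslinked with 254 nm UV at 400 and 200 mJ/cm2. The treatment was mock or sodium arsenite, an oxidative stressor, at 0.5 mM for 45 min. Each treatment has 2 input libraries, with HuR immunoprecipitation alone, and 4 enriched libraries, in which streptavidin capture was added. The description of each library begins with JL0388 or JL1024, taken here as a library set. Inputs numbered 1 and enriched libraries numbered 1 and 2 belong to JL0388, and inputs numbered 2 and enriched libraries numbered 3 and 4 to JL1024. The descriptions of the JL1024 inputs end in "All", and whether these pool several preparations is not stated. Whether the line is 1 clone, and whether libraries are separate cultures, is not stated, so p-values measure the spread between these libraries, which may be technical.

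HuR, the product of ELAVL1, is an RNA-binding protein that recognises U-rich and AU-rich stretches. It is mostly nuclear at rest, where it binds introns of unspliced transcripts, and it shuttles to the cytoplasm, where it binds 3'UTRs and is known for stabilising mRNAs. CLIP-seq counts the RNA fragments (tags) crosslinked to the protein. Capture after nuclear APEX labelling keeps HuR that was biotinylated, and the comparison with input asks which HuR-bound RNAs are gained or lost by that step. A tag count depends on the amount of an RNA and on how much of it HuR holds, and these cannot be told apart here.

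Input libraries held 160442 to 484305 tags in the 387214 peaks of the table and enriched libraries 12474 to 35859, so enriched values carry the larger counting error. Enriched libraries 1 and 2 did not differ beyond the sampling noise over gene sums in either treatment (chi-square p = 0.402 in mock and 0.653 in arsenite), while libraries 3 and 4 differed (p = 1.62e-43 and 5.72e-35). Each such JL0388 pair was therefore counted as 1 sample, which leaves 6 enriched and 4 input samples. Over the 26 peaks deep enough to compare, the mock pair did differ (chi-square p = 0.00389), and so did its snoRNA shares, at 0.175% (95% Wilson interval 0.136 to 0.227) and 0.403% (0.325 to 0.499). The sets stood apart: repeated small RNAs such as ribosomal RNA, 5S RNA and snoRNA took a far larger share in JL1024, so enriched samples were compared with inputs within sets. Hepatocyte transcripts were present, with tags for 8 of 10 markers and 1640 tags for AFP (alpha-fetoprotein) and 382 for ALB (albumin). The summed CPM of these markers, with all tags in a library's peaks as the total, was 910 to 1836 in enriched and 1808 to 2458 in input samples, and its part in the results was not tested. The 8 markers of other lineages had 20 tags in all, and CD3E, CD68, COL1A1 and LYVE1 were at 0.

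Tags in 3'UTR peaks took a smaller share of the enriched libraries than of the inputs in each of the 4 combinations of set and treatment. In JL0388 the 3'UTR share of tags in peaks was 17.1% in mock input and 10.5% in the mock enriched sample, and 24.1% in arsenite input and 13.1% in the arsenite enriched sample. In JL1024 it was 11.6% in mock input against 8.35% and 10.6% enriched, and 18.1% in arsenite input against 13.7% and 15.7% enriched. No enriched sample reached the input of its own set and treatment. The mean difference over the 4 combinations was -5.82 percentage points (two-sided exact permutation test within set and treatment, p = 0.0556, adjusted p = 0.0794 over 10 classes, smallest possible p 0.0278). The largest half-width of a 95% Wilson interval on a library's class share was 0.877 points, for counting error only.

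The intron share had the opposite sign. Their share was 48.0% in input and 53.3% enriched in JL0388 mock, and 42.6% and 50.7% in JL0388 arsenite. In JL1024 mock the input, at 27.1%, lay between the enriched samples at 25.8% and 28.9%, and in JL1024 arsenite the input was at 30.3% and the enriched samples at 31.4% and 32.2%. The mean difference was 3.78 points (exact permutation p = 0.139, adjusted p = 0.174), so it did not pass. The intron class of the table pools plain introns with 2 classes of retained intron.

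None of the 10 classes passed at an adjusted p of 0.05. With 36 relabellings no class could have passed on its own, whatever its difference. Adjustment over 10 classes allows a pass only when several classes share the smallest p. The classes at the smallest p the design allows, 0.0278, each with adjusted p = 0.0694 by the exact permutation test, were 5'UTR, CDS, snoRNA and TE. The snoRNA share, from peaks over small nucleolar RNAs that guide modification of ribosomal RNA, was lower in the enriched mean of all 4 combinations, with a mean difference of -0.699 points. It was 7.19% in JL1024 mock input against 5.31% and 5.12% enriched, but only 0.390% against 0.263% in JL0388 mock. The JL0388 arsenite difference was -0.0135 points, and 0.0152 without SNORD3 peaks. Taken singly, enriched mock 2 at 0.403% and arsenite 2 at 0.276% lay above their inputs at 0.390% and 0.270%. The TE share was 0.747 points higher, again in 4 of 4. These directions are relative to the tags in peaks. Peaks held 9.62% ± 4.83 of the enriched library totals (SD, n = 6) and 14.6% ± 6.56 of the input totals (SD, n = 4). These means mix the sets in unequal parts, and the mean difference within combinations was -3.44 points. Per library total all 10 classes were lower in the enriched samples, with -0.788 points for intron and -0.0536 for TE.

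**Figure D1:**
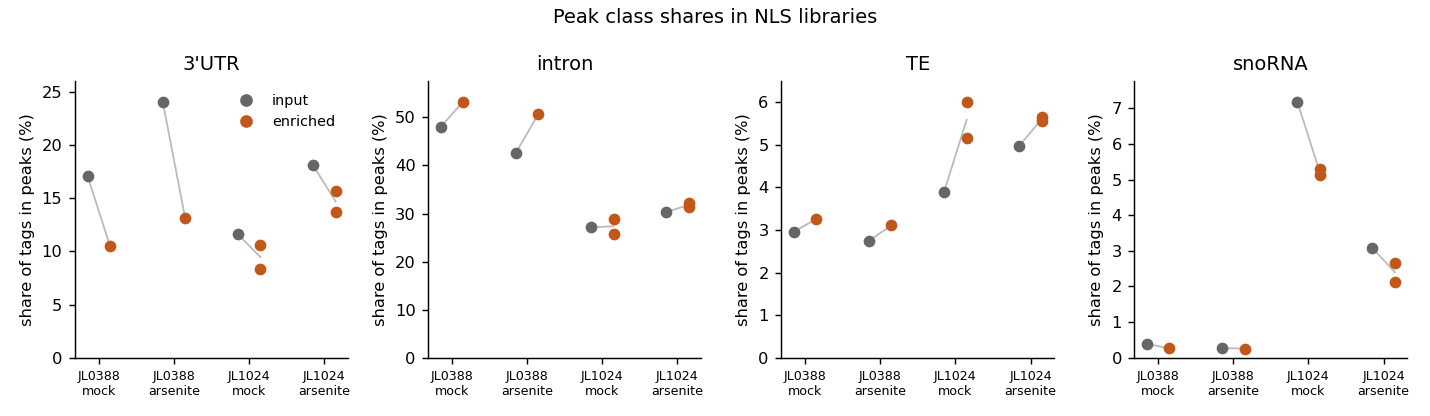
Share of each sample's tags in peaks (y axis, percent) that fell in 3'UTR, intron, TE and snoRNA peaks, by library set and treatment (x axis). Grey points are inputs, orange points enriched samples, and lines join the means; each 3'UTR enriched point lies below its own input.

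The 3'UTR share was also taken within genes, over the 6297 genes with both 3'UTR and intron peaks, a measure added after the class shares were seen. Of the 3'UTR plus intron tags of these genes, 3'UTRs held 27.1% in JL0388 mock input and 17.1% enriched, and 37.0% in JL0388 arsenite input and 21.2% enriched. In JL1024 they held 31.1% in mock input against 25.7% and 28.1%, and 38.5% in arsenite input against 31.2% and 33.5%. The enriched samples lay below their own input in every combination. The mean difference was -9.06 points (exact permutation p = 0.0278, the smallest possible, adjusted p = 0.0648 over the 7 added measures).

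The NES line carries APEX with a nuclear export signal, and its libraries were run in the same sets with their own inputs. There the same within-gene 3'UTR share was higher after capture in all 4 combinations, by 28.1 and 28.7 points in JL0388 and 5.05 and 12.5 points in JL1024. The NLS minus NES difference was -27.6 points (exact permutation over 4 against 4 combinations, p = 0.0286, the smallest possible). The NES values differed by set, and relabelling within sets, added after seeing the data, gave an exact p of 0.0556, the smallest that test allows. The mean difference in the intron share was 3.78 points in NLS and -16.2 points in NES, so NLS minus NES was 20 points (p = 0.0286 by exact permutation over the combinations, 0.0952 after adjustment over 10 classes, and 0.0556 and 0.139 within sets). For the plain 3'UTR share the difference of -13.4 points did not pass (exact permutation p = 0.171), and its NES values had opposite signs in the 2 sets.

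**Figure D2:**
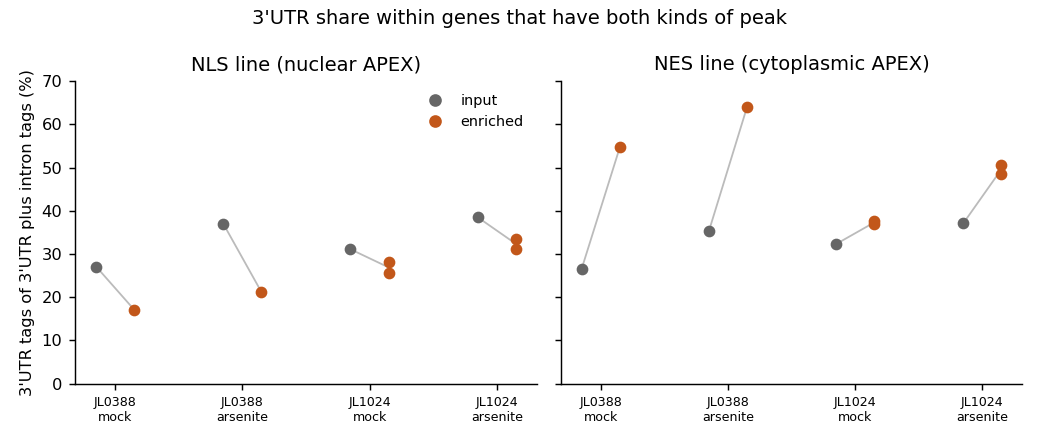
Percentage of 3'UTR tags among 3'UTR plus intron tags (y axis) in genes with both kinds of peak, by library set and treatment (x axis), for the NLS line (left) and the NES line (right). Grey points are inputs, orange points enriched samples; enriched samples lie below their input in NLS and above it in NES.

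Tags were then summed per gene, expressed as CPM, and tested with limma on log2(CPM + 80.2). Of 311 genes with a mean CPM of at least 400.8, 0 passed an adjusted p of 0.05 (0% called), with 26 lower and 5 higher at an unadjusted p under 0.05. That imbalance was not kept with every sample thinned to the shallowest library, at 12 lower and 14 higher, nor in JL0388 alone, at 20 lower and 55 higher of 380 genes. It was kept in JL1024 alone, at 29 lower and 1 higher of 246 genes, and with samples centred, at 31 and 3. Leaving out 1 sample gave 15 to 27 lower and 2 to 19 higher, with 25 lower and 19 higher without enriched mock 3. On the recovered whole tags edgeR called 7 lower and 0 higher (2.25%), and with TMM scaling 12 lower. The median log2 difference over the 311 genes was 0.00. Per library total it was -0.35 over the 491 genes that passed the filter on that scale, and differences below are relative to the tags in peaks.

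Of the 5 genes with the smallest p among those lower in the enriched samples, none passed with limma, and 4 are described here. They were ACTB (beta-actin), RPN1 (a subunit of the oligosaccharyltransferase), ACADM (a mitochondrial fatty acid dehydrogenase) and PCBP2 (a poly(C)-binding protein). ACTB differed by -0.98 ± 0.19 on the log2 scale (SE; limma adjusted p = 0.0595) and RPN1 by -1.01 ± 0.28 (limma adjusted p = 0.297). ACADM differed by -0.95 ± 0.28 and PCBP2 by -0.61 ± 0.18 (limma adjusted p = 0.297 for each). These 4 were lower in 4 of 4 combinations of set and treatment, as were 10.9% of the genes tested. The tags of ACTB and RPN1 were nearly all in the 3'UTR, at 97.5% for RPN1. Those of ACADM lay in snoRNA peaks, at 94.8%, so they count snoRNA inside the gene rather than its mRNA.

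The 5 with the smallest p among those higher were XIST, a nuclear RNA that coats the X chromosome, SRSF11, a splicing factor, PACS1, a sorting protein, NECTIN3, a cell adhesion protein, and CARD18, a caspase inhibitor. Their log2 differences were 0.48 ± 0.16, 0.52 ± 0.19, 0.36 ± 0.13, 0.50 ± 0.20 and 0.36 ± 0.16 (SE; limma adjusted p = 0.331 for XIST and SRSF11, 0.365 for PACS1 and NECTIN3 and 0.414 for CARD18). Intron peaks held 80.7% of the tags of SRSF11, 75.7% of PACS1, 76.9% of NECTIN3 and 93.8% of CARD18. Each was higher in 4 of 4 combinations, as were 17.4% of the genes tested. PACS1, NECTIN3 and CARD18 were among the 8 genes (2.57%) whose enriched samples lay above the inputs without overlap in both sets, and RPN1 was among the 2 (0.643%) below them. PACS1 and CARD18 changed sign per library total, to -0.04 and -0.02.

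Because a gene sum mixes kinds of site, the tags of each gene were also summed separately over exonic (3'UTR, CDS and 5'UTR), intron and snoRNA peaks, again after the class shares were seen. Of 162 such sums with enough tags, 21 of 22 exonic sums and 16 of 16 snoRNA sums (12 of 16 with edgeR) were lower in the enriched samples by sign, while 94 of 124 intron sums were higher. The median log2 difference was -0.51 for exonic, -0.54 for snoRNA and 0.12 for intron sums, beside 0.05 over all 162. By set, the exonic median was -0.75 over 23 sums in JL0388 and -0.33 over 26 in JL1024. Of the intron sums 199 of 220 were higher in JL0388, with a median of 0.20, and 45 of 74 in JL1024, with a median of 0.09. The snoRNA sums rested on JL1024, where 21 of 25 were lower with a median of -0.74, while the 1 such sum tested in JL0388 was higher, at 0.20. The limma test called 2 sums lower and 0 higher (1.23% called), both of them exonic. edgeR called 20 lower (12.3%), 10 of them exonic, 9 snoRNA and 1 intron, and 3 higher (1.85%), all intron, or 14.2% in all. Of the 162 sums, 13.6% were lower and 20.4% higher in 4 of 4 combinations. Per library total 295 sums passed the filter, with medians of -0.90 over 33 exonic, -0.87 over 15 snoRNA and -0.25 over 247 intron sums, beside -0.29 over all of them. Of the intron sums 229 were then lower in sign.

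**Figure D3:**
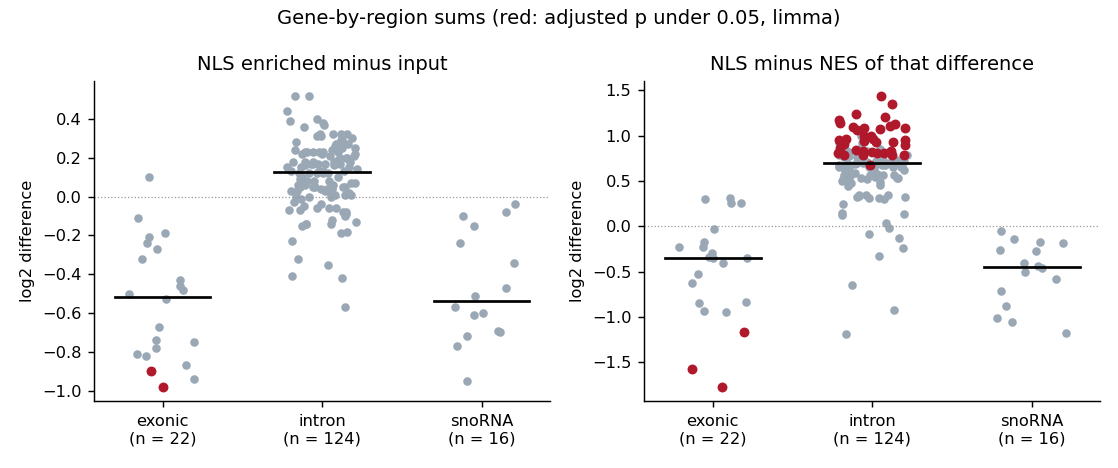
Log2 differences (y axis) of the 162 gene-by-region sums, for NLS enriched minus input (left) and for NLS minus NES of that difference (right), by kind of peak (x axis). Points are sums, black bars medians, and red points have an adjusted p under 0.05 by limma; the left panel has 2 red points, both exonic.

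ACTB and PCBP2 were the 2 exonic sums called lower. Exonic ACTB was at 686 CPM in JL0388 mock input and 205 enriched, and at 871 in JL0388 arsenite input and 310 enriched. In JL1024 it was at 3033 in mock input against 1781 and 2613, and at 5778 in arsenite input against 2465 and 3712. Each enriched sample lay below the input of its own set and treatment, by -0.98 ± 0.18 on the log2 scale (SE; limma adjusted p = 0.0113). The highest ACTB peak is in the 3'UTR at chr7:5527610-5527630 on the minus strand (GRCh38.p14, as the table gives it).

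Exonic PCBP2 was at 762 and 1072 CPM in the JL0388 mock and arsenite inputs and at 317 and 579 in the enriched samples. In JL1024 it was at 525 in mock input against 201 and 247, and at 873 in arsenite input against 348 and 667. Again no enriched sample reached its own input, with a difference of -0.90 ± 0.19 (SE; limma adjusted p = 0.0217). Its highest peak is in the 3'UTR at chr12:53479690-53479710 on the plus strand. Both calls depended on single samples: the ACTB call ended without input mock 1, input arsenite 1 or 2, enriched mock 1 and 2, or enriched mock 3 (limma adjusted p 0.0577 to 0.0733). The PCBP2 call ended without any of these or without input mock 2 (limma adjusted p 0.0577 to 0.0907). JL1024 alone gave -0.70 and -0.87 with limma adjusted p = 0.276 and 0.263.

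Other exonic sums had like values without passing. AFP differed by -0.94 ± 0.25, SPTBN1 (a spectrin) by -0.82 ± 0.22 and CTNNB1 (beta-catenin) by -0.75 ± 0.20 (SE; limma adjusted p = 0.0692 for each). For AFP the inputs were at 695 to 1063 CPM and the enriched samples at 228 to 638, with no overlap. For SPTBN1 the enriched samples were at 410 and 497 in JL0388 and 747 to 1218 in JL1024, and the lowest input was at 1250. These 2 were the sums whose samples did not overlap in either set on the lower side, 1.23% of the 162. SCD (stearoyl-CoA desaturase) and SFPQ (a nuclear splicing protein) differed by -0.81 ± 0.26 and -0.78 ± 0.25 (limma adjusted p = 0.113 for both). DDX17, an RNA helicase, was the 1 exonic sum above 0, at 0.10 ± 0.25.

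snoRNA sums, of host genes and of SNORD3 copies, lay between -0.04 and -0.95. RABGGTB, a prenyltransferase subunit, and RPL7A, a ribosomal protein, were at -0.72 ± 0.24 and -0.69 ± 0.25 (SE; limma adjusted p = 0.113 and 0.148). In JL1024 RPL7A snoRNA was at 6185 CPM in mock input against 2471 and 2930, and at 2132 in arsenite input against 1218 and 834. In JL0388 the inputs were at 200 and 161 CPM and the enriched samples at 168 and 145. The 4 SNORD3 copies, which encode the U3 RNA of the nucleolus, were nearest to 0, at -0.15 to -0.04, with opposite signs in the sets. SNORD3A was at 5234 CPM in JL1024 mock input against 6838 and 6249, and at 3004 in arsenite input against 4118 and 2711. In JL0388 it was at 279 and 186 in the inputs and 168 and 103 in the enriched samples. All 4 copies were lower on average in both JL0388 combinations and higher in both JL1024 combinations. Tags of such near-identical copies can be assigned to any of them, so the copies are not separate measurements.

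Intron sums were higher by small amounts and 0 passed with limma. STT3B, the catalytic subunit of the oligosaccharyltransferase, was at 756 and 696 CPM in the JL0388 inputs and 969 and 1076 enriched. In JL1024 it was at 316 in mock input against 517 and 494, and at 399 in arsenite input against 754 and 542. The groups did not overlap in either set, and the difference was 0.52 ± 0.17 (SE; limma adjusted p = 0.113, edgeR adjusted p = 0.0185). Introns of PACS1, CHKA (choline kinase), KDM2A (a histone demethylase) and FNDC3B also did not overlap, at 0.44, 0.37, 0.30 and 0.32, which with STT3B makes 5 sums or 3.09%. The KDM4C intron sum was the exception of smallest p, at -0.57 ± 0.19 (limma adjusted p = 0.113).

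**Figure D4:**
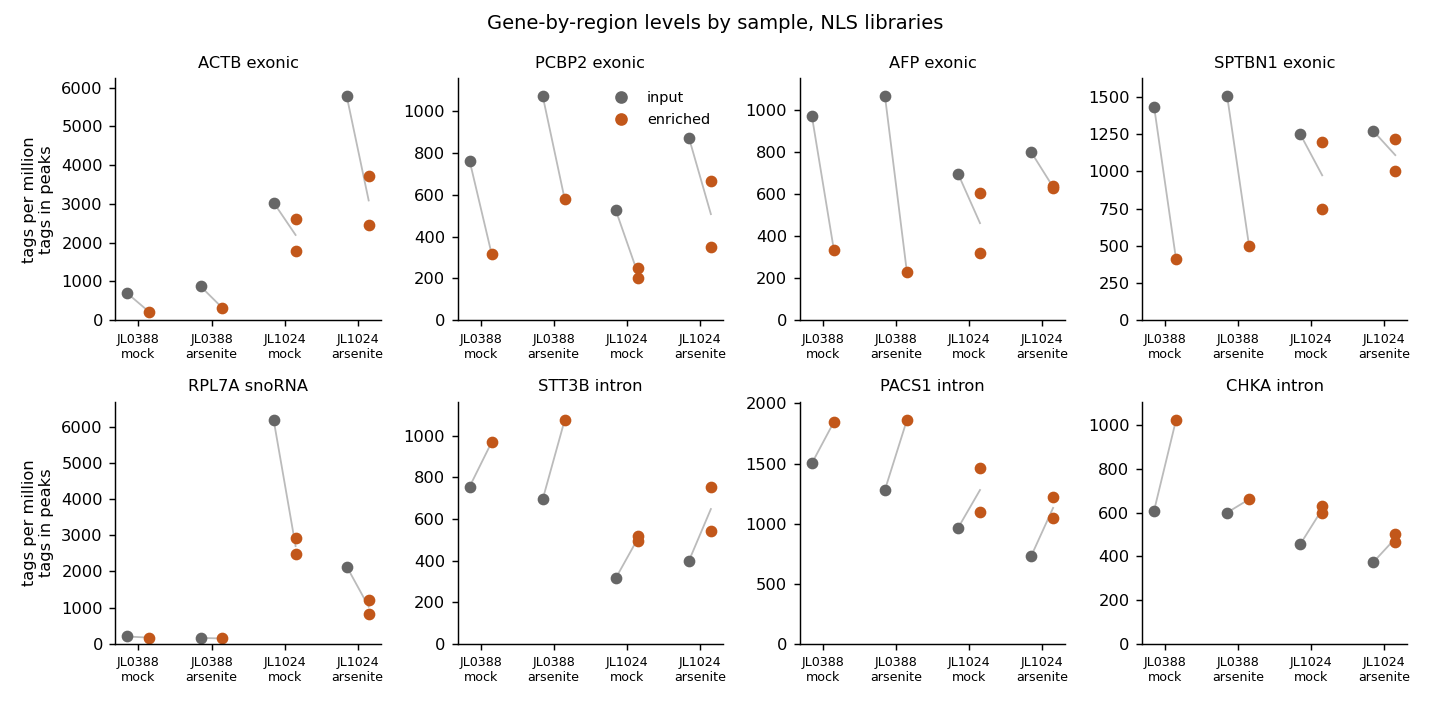
CPM over tags in peaks (y axis) in each sample for 8 gene-by-region sums, by library set and treatment (x axis). Grey points are inputs, orange points enriched samples, and lines join the means; exonic ACTB, PCBP2, AFP and SPTBN1 and snoRNA RPL7A lie below their inputs, and the 3 intron sums above.

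Single peaks were tested with the same model. Of 120 peaks tested, 0 passed with limma (0% called), with 15 lower and 3 higher at an unadjusted p under 0.05 around a median log2 difference of -0.25 over all 120. Leaving out 1 sample gave 9 to 25 lower and 1 to 5 higher at that p, with medians of -0.33 to -0.16. With each sample centred on its median, 7 were lower and 5 higher at that p, and limma called 3 higher. On the uncentred values edgeR called 5 lower, or 5 lower and 2 higher with TMM scaling. By sign, 20% were lower and 3.33% higher in 4 of 4 combinations. The 5 named peaks of smallest p on the lower side were in RABGGTB and ACADM (snoRNA), PCBP2 and CTNNB1 (3'UTR) and SNHG1 (a snoRNA host RNA), at -0.94, -0.95, -0.95, -0.82 and -0.86 (limma adjusted p 0.0716 to 0.0852). The CTNNB1 peak lies at chr3:41239937-41239957 on the plus strand. The 5 of smallest p on the higher side, at 0.20 to 0.73 (limma adjusted p 0.0852 to 0.642), all lie on chromosome 21 between 8210274 and 8443099, have no gene name and fall among repeated ribosomal DNA copies, where the position of a tag is uncertain. In 2 of them (1.67% of the peaks) the enriched samples lay above the inputs without overlap in both sets.

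Gene lists, chosen with earlier results of these data known, held few genes deep enough to test, and 0 of their genes passed with limma. All 5 snoRNA host RNAs tested (of 15) were lower in sign, with a median of -0.49, among them SNHG1 at -0.49 ± 0.20 and GAS5 at -0.41 ± 0.19. All 5 ribosomal protein genes tested (of 32) were lower, with a median of -0.58, but all 5, RPL4, RPL7A, RPL13A and RPS12 among them, hold snoRNA peaks. Of the 19 tested genes that hold a snoRNA peak, 18 were lower, with a median of -0.58. The 3 nuclear retained RNAs tested (of 7) were higher in sign, with MALAT1, a nuclear speckle RNA, at 0.16 ± 0.09, NEAT1, the scaffold of paraspeckles, at 0.13 ± 0.16 and FTX at 0.03 ± 0.21. MALAT1 was at 6091 to 7529 CPM in the inputs and 7269 to 8551 in the enriched samples, which overlap. Of the 5 HNRNP and SRSF genes tested (of 23), 4 were lower, with HNRNPH1 at -0.44 ± 0.16, and SRSF11 was higher. The 2 tested HuR targets (of 23), ACTB and CTNNB1, were at -0.98 and -0.58, and ACTB was also the only cytoskeleton gene tested (of 15). The 2 nuclear small RNAs tested (of 14), both SNORD3 copies, had a median of -0.07. Of 6 tested genes with long introns (of 20), 4 were higher, such as LRP1B at 0.36 ± 0.21, with a median of 0.01. The 3 tested genes for RNA-binding and decay factors (of 19) had a median of -0.07, and the 2 mitochondrial RNAs tested (of 15) -0.27. The only tested hepatocyte mRNA (of 20) was AFP at -0.57 ± 0.23. No stress granule gene (of 15) and no cytoplasmic long RNA (of 6) had enough tags.

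The nuclear and cytoplasmic fractions of mock cells gave a separate measure of where HuR-bound RNA of each gene lies. These CLIP libraries came from wild-type cells labelled as having no APEX reaction, so they differ from the NLS libraries in line and labelling as well. Of 306 genes in both fits, 37 were called higher in the cytoplasmic fraction and 33 of these were lower after NLS capture by sign, with a median of -0.34. The 225 called higher in the nuclear fraction had a median of 0.04 with 95 lower, beside 151 of 306 lower and a median of 0.00 overall. In the fraction fit, limma called 60.7% of 5276 genes, 34.5% higher in the nuclear and 26.2% higher in the cytoplasmic fraction. Past 2-fold, the 22 cytoplasmic genes were all lower with a median of -0.46, and the 58 nuclear genes had a median of 0.02. Nuclear-called genes lower after capture included the snoRNA hosts SNHG1 and GAS5, at 3.67 and 3.51 on the nuclear minus cytoplasmic log2 scale. Spearman's rho between the fraction and capture differences was 0.19 across the 306 genes, which are not independent replicates.

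**Figure D5:**
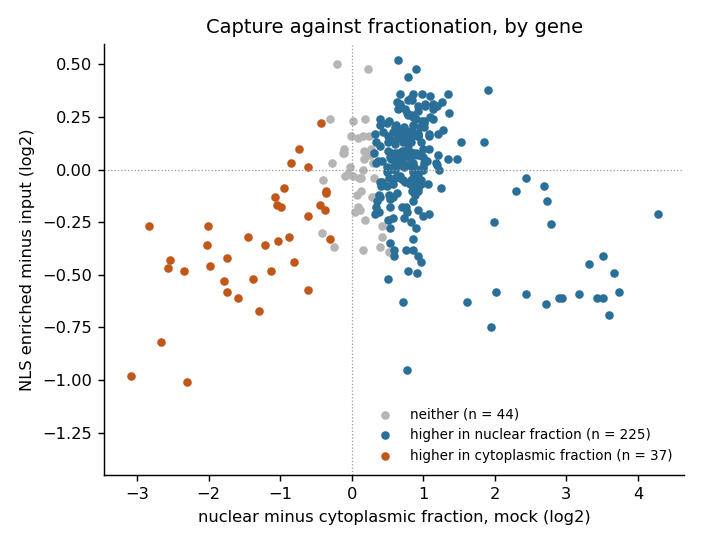
NLS enriched minus input (y axis, log2) against nuclear minus cytoplasmic fraction in mock cells (x axis, log2) for 306 genes. Colours give the fraction call; 33 of the 37 genes called higher in the cytoplasmic fraction lie below 0.

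Tested against the NES line, 25 of 311 genes had a higher capture difference in NLS (8.04%) and 2 a lower one (0.643%; limma interaction, 8.68% called), around a median of 0.46 over all genes. The NLS minus NES difference was -1.78 for ACTB, which was at -0.76 in NLS and 1.02 in NES with the pseudocount of that fit (limma adjusted p = 0.0293), and -1.17 for EIF5AL1. On the higher side it was 1.36 for MALAT1, at 0.15 in NLS and -1.20 in NES (limma adjusted p = 0.0462), 1.30 for NR6A1, a nuclear receptor, and 1.12 for DLEU2, a long non-coding RNA. Over the gene-by-region sums, limma called 37 of 124 intron sums higher in NLS (22.8% of all sums), with a median of 0.70, and 3 of 22 exonic sums (ACTB, GPC3 and EIF5AL1) lower (1.85% of all sums), with a median of -0.35, beside 24.7% called and a median of 0.61 over all 162. Per library total 171 genes and not 25 were called higher in NLS. GPC3 (glypican-3, a surface proteoglycan) was called in both directions, at -1.57 for its exons and 1.14 for its introns (limma adjusted p = 0.0240 for both). The shallowest NES library held 2981 tags, so the pseudocount in these fits was 335 CPM and these differences are the more compressed. Repeated small RNAs, which are part of each CPM total, rose in share after NES capture by 12.4 and 15.9 points in JL1024. In JL0388 they rose by 1.35 and 0.617 points. The NLS changes were -0.359 to 1.24 points, and the part of this shift in the differences was not tested.

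For no gene did the capture difference pass a test against arsenite: limma called 0 of 311 interactions of capture with treatment, with 0 at an unadjusted p under 0.05. Some genes would be expected under that p even without any interaction, so the fit was conservative. With 1 input per set and treatment, it cannot show that arsenite left capture unchanged. The interaction of capture with library set called 5 genes (1.61%), 4 of them higher (1.29%) and 1 lower (0.322%). MT-RNR2 (mitochondrial 16S ribosomal RNA) and the 5S copies RNA5S6, RNA5S12 and RNA5SP202 were relatively higher after capture in JL1024.

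Enriched libraries held tags for slightly fewer genes at equal depth. Thinned to 12474 tags, enriched samples showed 3158 ± 265 genes (SD, n = 6) and inputs 3408 ± 302 (SD, n = 4), a difference of -182 over the 4 combinations (exact permutation p = 0.0556, adjusted p = 0.278 over 5 measures of breadth). The number of peaks with a tag differed by 75.1 (exact permutation p = 0.639). The mitochondrial chromosome took 0.997% ± 0.675 of enriched and 0.953% ± 0.710 of input tags, and the mean difference within combinations was -0.156 points (exact permutation p = 0.0833).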

How the data were processed

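The deposited table gives signal per 20-nt peak and library, which from the values is tags in the peak divided by a library total. Whole tags were recovered for 100% of values within 0.01. Bowtie2, SAMtools, bedtools, HOMER and GRCh38.p14 are named, per the submitters' processing notes; the roles of these tools are not given in the sources used here. Of 395471 lines, 8257 repeats were dropped; 84358 peaks have no gene name. Replicate pairs that did not differ beyond sampling noise over gene sums were summed. Gene, peak and gene-by-region sums were tested with limma 3.58.1 (trend; set, treatment and capture as terms; pseudocount 80.2 CPM over tags in peaks, the worth of 1 tag in the shallowest library; filter 5 such tags), with edgeR 4.0.16 quasi-likelihood on recovered tags as an alternative, in R 4.3.3. Shares were tested by 36 relabellings within 4 combinations of set and treatment. Adjustment was Benjamini-Hochberg at 0.05, two-sided. The limma and edgeR fits were tested on simulated data. Members, lists and tests were chosen with earlier results of these data known. Named genes and peaks are the 10 (peaks, 5) largest called in each direction without overlap within sets or, where under 5 qualify, the 5 of smallest p; list genes are the 4 highest and the 2 of largest difference; other names were chosen after their values were seen. Peak sequences were not analysed here. Some genes that these rules name are not reported here.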

Additional observations from a re-analysis of the deposited data

Results flagged for a closer look

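The capture difference differed between library sets for 5 genes by a limma interaction, 4 higher and 1 lower in JL1024, and the 4 higher are given here (adjusted p 0.0234 to 0.0341). JL1024 minus JL0388, it was 1.26 for MT-RNR2, 1.60 for RNA5S6, 1.79 for RNA5S12 and 2.04 for RNA5SP202 on the log2 scale. The 5S copies are near-identical, so their tags cannot be told apart.

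NLS and NES capture differed by the same kind of test for 25 genes on the higher and 2 on the lower side. By exact permutation over 4 against 4 combinations (p = 0.0286, the smallest possible; within sets p = 0.0556, the smallest there), the NLS minus NES difference was 20 points for the intron share, -1.81 for the snoRNA share and -0.355 for the downstream 10K share (adjusted p = 0.0952 over 10 classes). By the same exact test it was -12.3 points for the share of the 1000 highest peaks, -27.6 for the within-gene 3'UTR share, 19.4 for the intron share without repeated small RNAs and 4.24 for the share of library totals in peaks.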

How the results depend on the processing

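Counts of calls depended on the scaling and the test. With 0 of 311 gene sums called lower in limma, the count was 66 of 491 per library total and 1 of 311 with samples centred. It was 1 of 27 with the filter at 20 tags, and 7 with edgeR and 12 with TMM, each of 311. In JL0388 alone it was 3 of 380 and in JL1024 alone 5 of 246. Without repeated small RNA peaks, a setting chosen after seeing the data, it was 1 of 330. Leaving out 1 sample gave 0 to 1. For single peaks it was 48 of 117 per library total, 1 of 120 with a pseudocount 4 times smaller, and 5 of 120 with edgeR and with TMM. Entering 12 libraries singly gave 1 of 108. The count was 7 of 14 in JL0388, 12 of 205 in JL1024 and 2 of 144 in mock alone, and 0 to 7 leaving out 1 sample. Peaks called higher were 3 of 120 with centring, 2 of 120 with TMM, 1 of 14 in JL0388 and 2 of 205 in JL1024. Region sums, all added, were called lower in 20 of 162 with edgeR, 33 of 295 per library total, 16 of 244 in JL0388 and 0 of 125 in JL1024. Leaving out 1 sample gave 0 to 6 called lower. They were called higher in 3 of 162 with edgeR and 11 of 244 in JL0388. Per library total, set interactions called lower were 2 of 491, and NLS minus NES interactions called higher were 171 of 311.

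Between enriched mock and enriched arsenite libraries of the same number, deviations from the group means correlated at 0.179 in JL0388 and 0.045 in JL1024. Pairing of enriched with input libraries was not examined. The JL0388 pairs did not differ beyond sampling noise over gene sums, so the value there cannot show whether numbers are paired. With the replicate number as a block and the 12 libraries entered singly, 18 of 333 gene sums and 26 of 108 peaks were called lower (without the block, 0 and 1), 2 chromosome 21 peaks changed sign to -0.04 and -0.22, and number 1 of JL0388 alone gave -0.218 for the 20 highest peaks and -0.380 for repeated small RNAs.

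With 12 libraries singly, exact adjusted p was 0.0247 for 3'UTR (-5.83), 5'UTR (-0.135), CDS (-0.135), TE (0.746) and Other (0.256). This setting counts the JL0388 pairs, which did not differ beyond sampling noise over gene sums, as separate samples. It has more relabellings, so a smaller p was possible with nearly the same differences, and these are not taken as passes. Per library total, differences were -1.44 for 3'UTR, -0.0364 for 5'UTR, -0.0411 for CDS, -0.12 for snoRNA and -0.0523 for downstream 10K, and the sign changed for intron (-0.788), ncRNA (-0.47), TE (-0.0536), Other (-0.0664), unannotated (-0.376), PACS1 (-0.04), CARD18 (-0.02, and -0.08 when thinned) and 1 chromosome 21 peak (-0.09). Small differences also changed sign: downstream 10K (0.00902), the 100 highest peaks (0.0859) and peaks at equal depth (-113) in JL1024, the 20 highest peaks (-0.203) and repeated small RNAs (-0.122) in JL0388, and the latter (-0.141) in mock. Leaving out 1 sample gave -0.829 to 0.243 for the 100 highest peaks, -12.8 to 180 for peaks at equal depth, and -0.493 to 1.03, below 0 in 3 cases, for repeated small RNAs. Relabelling within library sets, also added, took each NLS minus NES share with an exact p of 0.0286 to 0.0556, the smallest it allows. The cause of these changes was not tested. The search for U-rich motifs was not run, and without repeated small RNA peaks the snoRNA class gave no value. Enriched depth limited tests to 311 of 13836 named genes.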
